A study of Mus musculus with 8 samples.

Results

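The genes described here are those whose mouse symbol is Zfp followed by digits only, most of which encode zinc finger proteins, and that were expressed in cultured mouse cardiac fibroblasts. Members were selected on their level: the mean over the 8 libraries had to reach 5 counts per 1000000 counts of the library (CPM). Of 374 genes with such a symbol among the 55414 in the count table, 189 reached this level. The set was proposed because Zfp445 and Zfp68 were lower with the Has2 virus in some replicate pairs, so the set was also chosen by the virus comparison in the pairs, whose values are given as a description with no test of the set.

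Poly(A) RNA was sequenced from 4 cultures given a control adenovirus for green fluorescent protein (GFP) and from 4 given an adenovirus that overexpresses Has2, the plasma membrane enzyme that makes hyaluronan. All cells were passage 2 fibroblasts from C57BL/6J hearts, starved of serum for 24 h, exposed to virus for 5 h and collected 48 h after a change to medium with bFGF and TGFb at 20 ng/mL. The genotype is labelled wild type, whereas the protocol names Has2fl/fl animals; no group used here is labelled as given the Cre virus of that protocol, and GFP and Has2 cultures share the label. Replicates 1 and 2 of each group are female and replicates 3 and 4 male. Libraries of the same number share a library name identifier, and those identifiers begin with S in females and R in males, so sex and library series cannot be told apart. Whether each culture is from a different animal is not labelled, and the spread between libraries may therefore be technical.

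Most Zfp proteins bind DNA through C2H2 fingers, short repeats in which a pair of cysteines and a pair of histidines hold a zinc ion. Many also carry a KRAB domain, which recruits the corepressor Trim28 and through it the histone methyltransferase Setdb1, and such proteins are best known for silencing retroelements and for keeping imprinted regions methylated. The genes have multiplied by duplication, often lie side by side in clusters, and differ in base composition. Transcript GC content is used here as the share of G and C bases in the longest annotated transcript of a gene.

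The spread in base composition can be seen in the fingers themselves. Each line below is the first C2H2 finger with its linker in the coding sequence of a gene's longest open reading frame, from the GENCODE M21 transcripts, 78 bases or 26 codons read 5′ to 3′; capitals mark the codons of the 2 cysteines and 2 histidines. Zfp445 and Zfp68 are the genes named when the set was proposed, Zfp120 had the most negative mean change in the male pairs, Zfp950 has a nearly identical finger, Zfp146 and Zfp637 are abundant genes of 48.8% and 48.0% transcript GC, and Zfp771 has the highest transcript GC of the family.
Zfp445: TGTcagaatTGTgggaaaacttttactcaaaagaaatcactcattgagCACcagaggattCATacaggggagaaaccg
Zfp68: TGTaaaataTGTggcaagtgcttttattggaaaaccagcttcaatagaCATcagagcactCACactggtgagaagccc
Zfp120: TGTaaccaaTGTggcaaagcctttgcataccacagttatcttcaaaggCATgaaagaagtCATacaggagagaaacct
Zfp950: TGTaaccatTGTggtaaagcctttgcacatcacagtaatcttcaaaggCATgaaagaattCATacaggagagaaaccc
Zfp146: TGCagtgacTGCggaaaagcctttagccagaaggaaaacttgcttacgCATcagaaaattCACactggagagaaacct
Zfp637: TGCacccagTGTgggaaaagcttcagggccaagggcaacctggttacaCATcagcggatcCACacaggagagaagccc
Zfp771: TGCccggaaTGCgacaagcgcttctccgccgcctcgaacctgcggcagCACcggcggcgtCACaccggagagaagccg

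The finger of Zfp771 held 70.5% G and C and that of Zfp445 41.0%. The third base of the codon was G or C in 23 of 26 codons of the Zfp771 finger, in 11 of 26 of the Zfp445 finger and in 7 of 26 of the Zfp120 finger. The fingers of Zfp120 and Zfp950 were identical at 71 of 78 bases, against 45 of 78 for Zfp445 and Zfp68. Reads from near-identical stretches could have been divided between such copies in a way that is not given in the sources used here, so single values of clustered genes are uncertain to that extent. A finger of this form was found in 111 of the 189 genes; its median GC was 50%, and across these genes finger GC correlated with transcript GC at a Spearman rho of 0.74.

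Transcript GC of the 189 genes ran from 34.6% in Zfp979 to 68.7% in Zfp771, with a median of 46.6% against 49.7% over the 15150 genes tested. It was under 45% in 84 of the genes (44.4%), compared with 25.2% of all tested genes that have a value. A coding part was annotated for 188; these held a median of 9 C2H2 motifs, 93 held 10 or more, and 6 held none, among them Zfp36, an RNA-binding protein with a different type of finger. A KRAB-like motif was found in 73 of the 188, with a median transcript GC of 43.2%, and was not found in 115, with a median of 50.03%. The motif search was a letter pattern and also matched 30 annotated proteins with no C2H2 finger. On the chromosome, 83 of the genes had another Zfp gene as the nearest protein-coding neighbour on at least one side.

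Libraries held 46981231 to 55795187 counts, and the lowest count of any of the 189 genes in any library was 98; all 189 passed the filter on low counts. Levels are given below as CPM by effective library size, and the median over the genes of the mean level was 12.9 CPM. Has2 itself, the check of the labels, stood at 7.36 to 25.2 CPM in the GFP libraries and at 3209 to 9533 CPM in the Has2 libraries. The fibroblast markers summed to 25636 to 39817 CPM and the cardiomyocyte markers to 4.29 to 8.94 CPM, with Myh6, Myh7, Actc1 and Nppa at 0.04 CPM or less. Tnnt2 and Tnni3, the other cardiomyocyte markers of the list, thus made up nearly all of the cardiomyocyte sum. Macrophage markers were present in every library, at 917 to 2528 CPM in sum. In bulk RNA, fewer cells of a type and less RNA per cell cannot be told apart.

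In the male pairs the level of a Zfp gene with the Has2 virus followed the GC content of its transcript. The change in a pair is log2 of the Has2 level over the GFP level of the same replicate number, with 0.5 CPM added to each. Across the 189 genes its Spearman rho with transcript GC was 0.87 in pair 3 and 0.86 in pair 4, both male, and −0.23 and −0.15 in pairs 1 and 2, both female. Over all genes tested with a GC value the same rho was 0.68 in pair 3, 0.66 in pair 4, −0.23 in pair 1 and −0.18 in pair 2. These are correlations across genes of the same libraries, which share depth and preparation, and genes are not independent replicates. A straight line through the 189 genes rose by 0.66 and 0.60 on the log2 scale for each 10 points of GC in pairs 3 and 4, and all genes tested gave 0.44 and 0.43. In pairs 1 and 2 the lines had slopes of −0.07 and −0.06 for the family and of −0.10 and −0.08 for all genes tested.

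**Figure D1:**
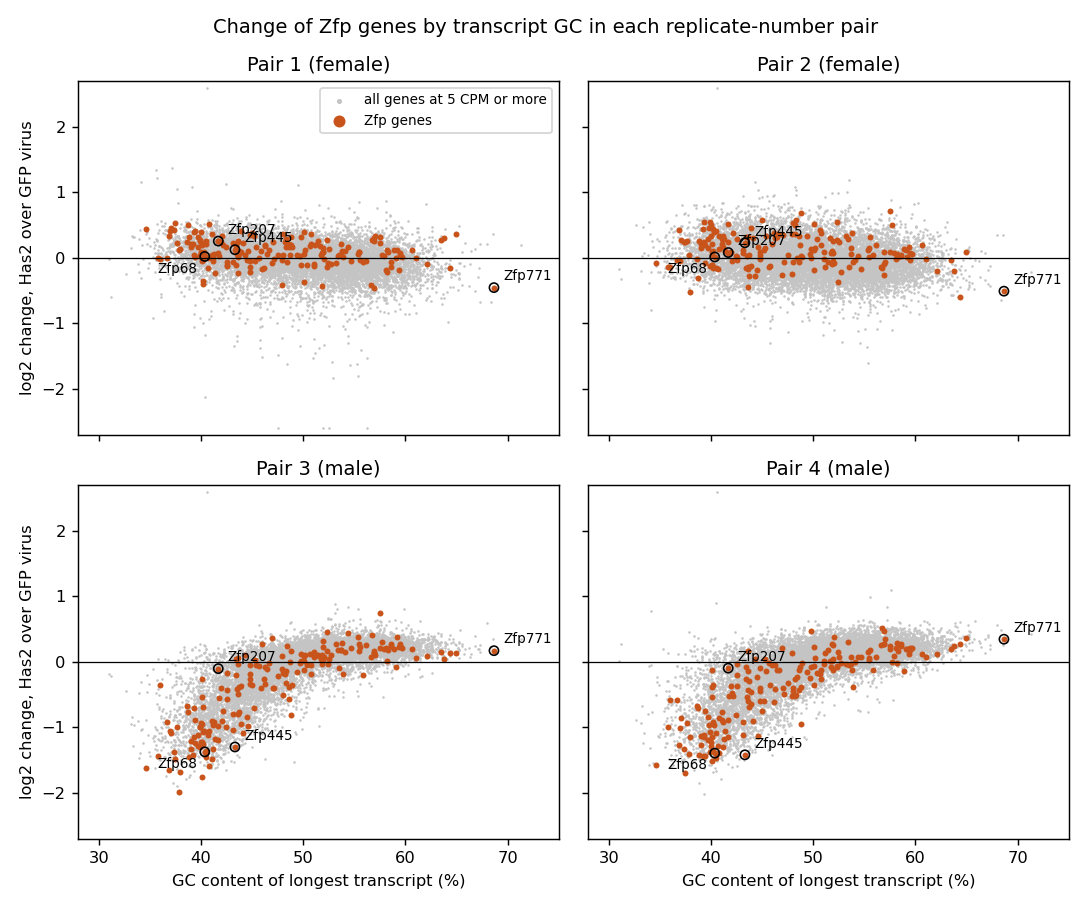
Log2 change of the Has2 over the GFP library in each replicate-number pair (y axis) against the GC content of the longest transcript in percent (x axis), for the 189 Zfp genes (orange) and all genes with a mean of at least 5 CPM (grey; points beyond 2.6 either way, Has2 among them, are drawn at that edge). The orange cloud declines slightly with GC in the female pairs and climbs with GC in the male pairs, where Zfp445 and Zfp68 lie below −1.2 and Zfp207, of like GC, near 0.

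In the male pairs Zfp445 and Zfp68 lay below the medians of −0.90 and −0.69 for Zfp genes of 40% to under 45% GC. Zfp445, a KRAB protein that binds imprinted regions together with Zfp57, was at 46.5, 40.9, 41.4 and 45.8 CPM in GFP replicates 1 to 4 and at 50.8, 48.1, 16.5 and 16.8 CPM in Has2 replicates 1 to 4. The 2 male Has2 libraries lay apart from the other 6, and the female Has2 libraries lay above every GFP library. Its changes were 0.13, 0.23, −1.30 and −1.42 in pairs 1 to 4, that is 2.46-fold and 2.67-fold lower in the male pairs. Zfp68, also a KRAB gene, was at 33.8, 29.9, 32.3 and 33.4 CPM with the GFP virus and at 34.3, 30.2, 12.2 and 12.4 CPM with the Has2 virus. The male Has2 libraries were again the low ones, and the female ones lay at or near the GFP range. Their transcripts hold 43.3% and 40.4% GC, and their coding parts 44.7% and 41.4%.

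The genes whose levels over the 8 libraries were most like Zfp445 were Zfp260, Fam76b, Usp47, Pigh and Usp33. Pearson's r of log2 CPM was 0.998 for Zfp260 and 0.995, 0.994, 0.993 and 0.993 for the others, among 10306 genes with a mean of at least 5 CPM. Their transcripts hold 39.3% to 44.0% GC. Only Zfp260, a finger protein first studied as a cardiac transcription factor, belongs to the family. It was at 62.7, 53.4, 55.7 and 59.0 CPM in the GFP libraries and at 66.4, 63.4, 24.0 and 26.4 CPM in the Has2 libraries. The same 2 libraries were low, which follows from the choice by Pearson's r over these libraries.

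**Figure D2:**
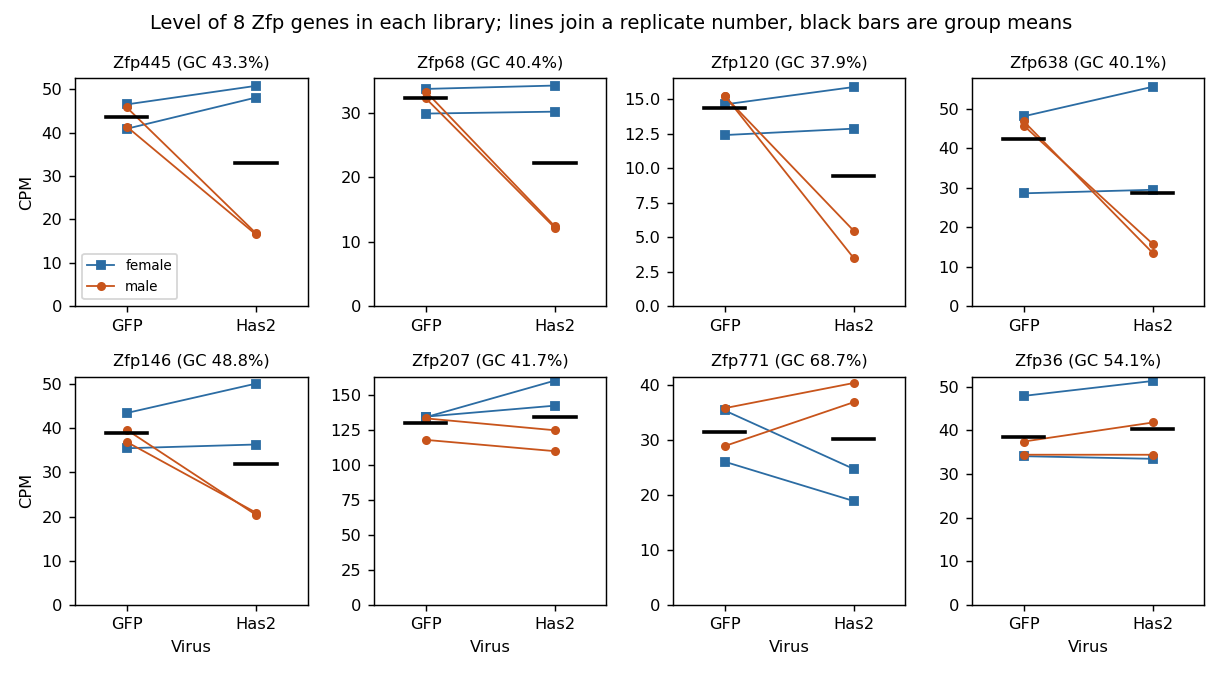
Level in CPM (y axis, from 0) of 8 Zfp genes with the GFP and the Has2 virus (x axis); each point is a library, lines join libraries of a replicate number (blue squares female, orange circles male) and black bars are group means of 4. For Zfp445, Zfp68, Zfp120 and Zfp638 both male Has2 libraries are the lowest of the 8, while Zfp207 and Zfp36 differ little and Zfp771 is higher with Has2 in the male pairs and lower in the female pairs.

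Compared as 4 cultures against 4, no Zfp gene passed the test. With edgeR's quasi-likelihood test and group as the only term, 0 of the 189 were called in either direction at an adjusted p under 0.05; over all genes tested 0.0066% were called higher, which is Has2 alone, and 0% lower. At an unadjusted p under 0.05 there were 2 of the 189, against 388 of the 15150 genes tested. DESeq2 and limma-voom called 0 of the 189, against 7 and 1 of all genes tested. The log2 fold change of Zfp445 was −0.40 with a standard error of 0.37, and that of Zfp68 −0.54 with one of 0.33. With the replicate number as a block edgeR also called 0 of the 189, against 1 of all genes tested. Zfp445 was then at −0.60 with a standard error of 0.32, and Zfp68 at −0.69 with one of 0.30. The median log2 fold change over the 189 genes was −0.05, and 0.03 without Has2 replicates 3 and 4. Group means of Zfp445 were 43.7 ± 2.9 CPM (SD, n = 4) for GFP and 33.1 ± 18.9 CPM (SD, n = 4) for Has2.

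The difference between male and female responses depended on whether libraries of the same number were paired and on the tool. With edgeR and no block, 0 of the 189 and 0 of all 15150 genes tested were called. At an unadjusted p under 0.05 there were 48, against 2014 of all genes tested. DESeq2 with no block called 23, against 675 of all genes tested. With the replicate number as a block edgeR called 79 lower and 6 higher in males, where 18% and 11.5% of all genes tested were called lower and higher. Since the set was chosen with this contrast in view, nothing is read from that count. The median male-minus-female difference of the 189 genes was −0.32 without the block and −0.33 with it; it was −0.63 without GFP replicate 1 and −0.19 without GFP replicate 2.

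By direction alone, 113 of the 189 genes were lower in both male pairs (36.3% of all genes tested were) and 54 were higher in both. In the female pairs 103 were higher in both, against 31.3% of all genes, and 68 were lower in both male and higher in both female pairs, against 15.9%. Changes of 2-fold or more downward in both male pairs were seen in 29 of the genes, against 3.17% of all genes, and in both female pairs in 0, against 0.106%. The most extreme female changes were −0.60 and 0.71. The median over the family was 0.09 in each female pair, −0.17 in pair 3 and −0.24 in pair 4, where the medians over all genes tested were −0.00, −0.01, 0.03 and 0.01. Across the 189 genes the changes of pair 3 and pair 4 correlated at a Spearman rho of 0.90 and those of pairs 1 and 2 at 0.36.

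In both male pairs the medians climbed with GC from bin to bin. The 27 genes under 40% GC had median changes of −1.20 and −1.13 in pairs 3 and 4, and all 27 were lower in both. The 57 genes from 40% to under 45% had medians of −0.90 and −0.69, and 54 were lower in both. The 33 genes from 45% to under 50% were at −0.13 and −0.25, and the 35 from 50% to under 55% at 0.10 and −0.00. At 55% or more the 37 genes had medians of 0.19 and 0.19, and 33 were higher in both male pairs. Among all genes with at least 5 CPM the medians of the lowest bin were −0.95 and −0.86, of the next −0.52 and −0.47, then −0.03 and −0.06, then 0.16 and 0.14, and of the highest 0.22 and 0.22. In each of the 5 bins the Zfp medians of the male pairs lay under those of all genes; the gap was smallest at 55% or more. In the female pairs the lowest bin of the family was at 0.25 and 0.20 and the highest at 0.05 and 0.05. Among all genes with at least 5 CPM these bins were at 0.10 and 0.08, and at −0.09 and −0.09, under those of the family.

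**Figure D3:**
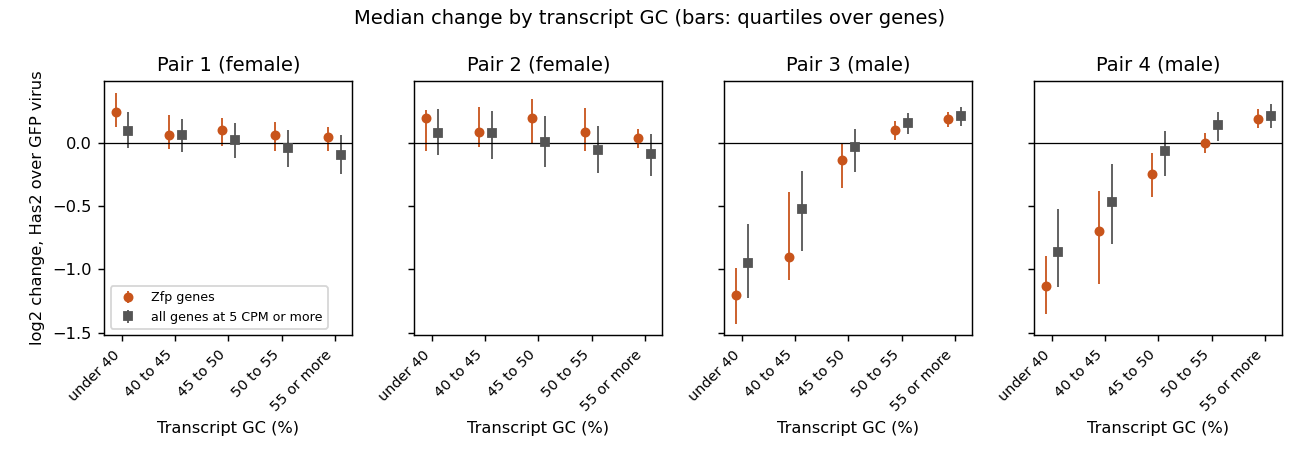
Median log2 change, Has2 over GFP (y axis), in 5 bins of transcript GC in percent (x axis) for Zfp genes (orange circles) and all genes with a mean of at least 5 CPM (grey squares) in each pair; bars span the quartiles over genes, not replicate error. In the male pairs both series climb from the lowest to the highest bin, with the Zfp medians below the others in each bin.

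The sum over the low-GC genes shows which libraries carried this. The 84 genes under 45% GC summed to 1601, 1253, 1467 and 1569 CPM in GFP replicates 1 to 4 and to 1750, 1355, 882 and 963 CPM in Has2 replicates 1 to 4. The 37 genes at 55% or more summed to 730, 700, 743 and 750 CPM with GFP and to 752, 706, 853 and 852 CPM with Has2. Has2 replicates 3 and 4 were thus the lowest of the 8 for the first set and the highest for the second. GFP replicate 2 and Has2 replicate 2 were the lowest of the remaining 6 for the low-GC genes, so the female replicate 2 cultures differed from replicate 1 in the same respect whichever virus they had. The 2 male Has2 libraries were the lowest 2 of the 8 for 68 of the 189 genes (36.0%), and for 2790 of all 15150 genes tested (18.4%).

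**Figure D4:**
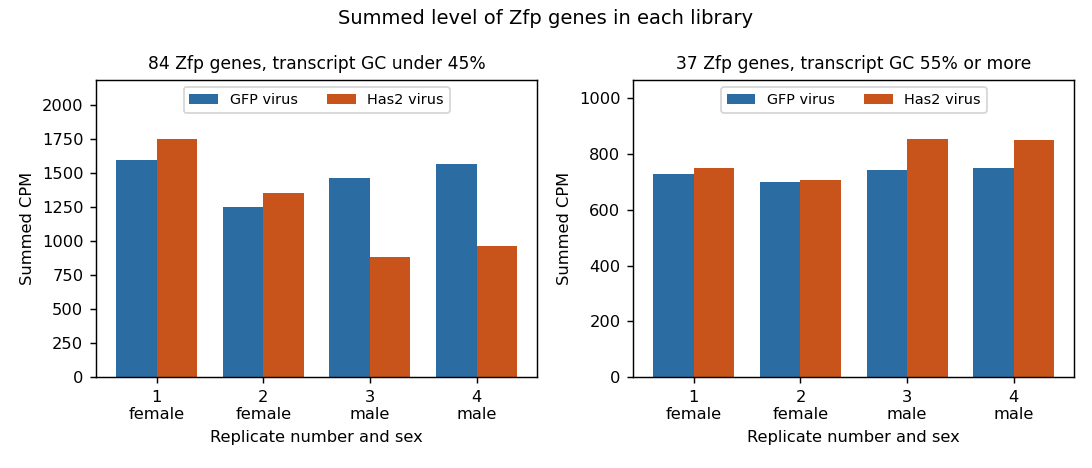
Summed CPM (y axes, from 0) of the 84 Zfp genes under 45% transcript GC and of the 37 at 55% or more, in each library by replicate number and sex (x axis; blue GFP virus, orange Has2 virus). The low-GC sum is lowest, at 882 and 963 CPM, in Has2 replicates 3 and 4, where the high-GC sum is above 850 CPM.

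Other features of the libraries moved with this pattern. The share of all counts on genes under 45% GC was 19.2%, 16.2%, 18.2% and 19.5% in GFP replicates 1 to 4 and 21.7%, 17.8%, 12.6% and 14.4% in Has2 replicates 1 to 4. The share on mitochondrial genes was 1.02%, 0.662%, 0.702% and 0.940% with GFP and 1.88%, 0.909%, 0.417% and 0.603% with Has2, and was thus lower with Has2 in the male pairs and higher in the female pairs. Summed macrophage markers were 2393, 972, 1732 and 2175 CPM with GFP and 2273, 917, 1954 and 2528 CPM with Has2. The part of these in the result was not tested.

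With a smooth trend of GC and transcript length over all genes removed from every library, the family's medians came closer to 0. They became 0.07, 0.05, −0.06 and −0.07 in pairs 1 to 4, and the median male-minus-female difference became −0.18. The 56 genes with both transcript and coding GC under 45% had medians of −0.31 and −0.30 in pairs 3 and 4. The other 28 genes under 45% transcript GC had 0.03 and 0.06. Zfp445 and Zfp68 had mean male changes of −0.79 and −0.61. With the trend removed and the block kept, 29 of the genes were called lower and 9 higher in males than in females, against 4.58% and 5.97% of all genes; with coding GC in the trend as well, the counts were 23 and 5, against 4.18% and 4.96%. The removal is a description of what runs with GC, and it takes out any change of the cells that runs with GC as well.

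The low-GC genes were also divided by coding GC. Of the 84 genes under 45% transcript GC, the 56 whose coding part was also under 45% had medians of −1.11 and −1.06 in the male pairs, and all 56 were lower in both. The other 28, with a GC-richer coding part, had medians of −0.44 and −0.49. Their median transcript GC was 43.5%, against 40.1% for the 56, so the division runs with transcript GC as well. Spearman's rho of the change with coding GC was 0.85 in each male pair, with the GC of the third codon base 0.80 and 0.78, with that of the first and second bases 0.77 and 0.79, and with 3′ UTR GC 0.77 and 0.81. Within one set these measures are related to each other, so their rhos do not tell them apart. Finger GC, in the 111 genes with a finger of the printed form, had a rho of 0.73 with the mean male change.

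**Figure D5:**
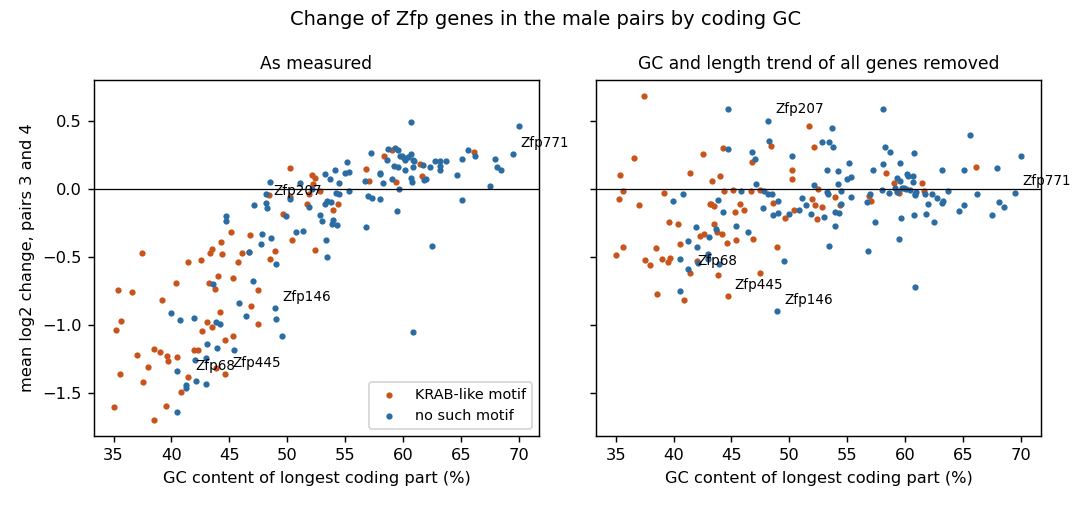
Mean log2 change over the male pairs 3 and 4 (y axis) against the GC content of the longest coding part in percent (x axis) for the 188 Zfp genes with one, before and after removing the GC and length trend of all genes; orange marks a KRAB-like motif and blue none. Before removal both colours climb together from about 35% to 60% GC, and after it Zfp445, Zfp68 and Zfp146 remain below −0.5.

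Genes with the KRAB-like motif were lower in the male pairs than those without it, and under 45% GC their medians were alike. The 73 with it had medians of −0.75 and −0.59 in the male pairs, and the 115 without it 0.02 and −0.08. Among genes under 45% GC the 49 with the motif were at −0.99 and −0.90 and the 35 without it at −0.97 and −0.88. Under 45% GC the 42 with a Zfp neighbour were at −0.9964 and −0.86 and the 42 without one at −0.96 and −0.93. The number of fingers followed the change weakly, with a rho of −0.20 and −0.22 in pairs 3 and 4, and transcript length with −0.10 and −0.24. In pairs 1 and 2 the number of fingers had 0.07 and 0.21, and transcript length 0.14 and 0.50.

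The change had a lower rho with the GC of the DNA upstream of the gene than with that of the transcript. The RefSeq table of promoters (GRCm38.p6) held a window for 153 of the genes. GC of the 250 bases before the start had a median of 56.4% in them and 52.0% in the whole table. The whole table was not limited to expressed genes, as the family was, so the sets are unlike. Its Spearman rho with the change was 0.36 and 0.34 in pairs 3 and 4. The windows of Zfp445, of Zfp68 and of the GC-rich Zfp771 are shown so that the contrast with their transcripts can be seen, with each CG dinucleotide, the letters searched for (the same on both strands), in capitals.
Zfp445, minus strand, chr9:122866007-122866256: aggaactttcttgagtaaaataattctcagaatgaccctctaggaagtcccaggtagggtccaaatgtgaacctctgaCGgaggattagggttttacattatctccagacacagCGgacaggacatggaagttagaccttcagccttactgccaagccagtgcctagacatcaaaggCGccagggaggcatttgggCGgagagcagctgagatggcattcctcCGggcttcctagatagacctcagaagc
Zfp68, minus strand, chr5:138619744-138619993: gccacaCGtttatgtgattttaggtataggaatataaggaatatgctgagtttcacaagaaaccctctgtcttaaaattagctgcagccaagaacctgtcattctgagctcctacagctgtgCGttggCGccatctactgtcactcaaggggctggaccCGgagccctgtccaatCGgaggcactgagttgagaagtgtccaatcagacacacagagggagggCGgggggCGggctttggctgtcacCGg
Zfp771, plus strand, chr7:127244276-127244525: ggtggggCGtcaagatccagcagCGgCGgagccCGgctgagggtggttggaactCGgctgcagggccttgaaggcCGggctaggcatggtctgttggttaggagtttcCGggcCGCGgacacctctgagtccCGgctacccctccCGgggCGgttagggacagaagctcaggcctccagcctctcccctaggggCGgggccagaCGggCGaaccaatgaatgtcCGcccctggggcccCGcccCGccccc

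The windows of Zfp445 and Zfp68 held 50.4% and 52.4% GC, more than their transcripts, with 5 and 8 CG dinucleotides. That of Zfp771 held 70.4%, near the 68.7% of its transcript, with 18. At least 1 CG was present in 91.74% of the 27025 windows in the table and in all 153 windows of the family, whose median was 13 against 6. The family was selected on its level and the table was not, so this difference may go with expression, which was not tested. Letters in a window are a description and say nothing of what binds there.

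The 5 most negative mean male changes belonged to Zfp120, Zfp638, Zfp979, Zfp81 and Zfp970, all under 41% transcript GC and all but Zfp638 with a KRAB-like motif. Zfp120 was at 14.6, 12.4, 15.3 and 15.2 CPM with GFP and at 15.9, 12.9, 3.5 and 5.5 CPM with Has2, changes of 0.12, 0.05, −1.99 and −1.40. Zfp979, at 34.6% the lowest GC of the family, had changes of −1.62 and −1.58 in the male pairs. Zfp81 and Zfp970 had −1.49 and −1.70, and −1.59 and −1.39. Zfp638, a nuclear protein without a KRAB-like motif that is known for silencing unintegrated retroviral DNA, was at 48.1, 28.6, 46.8 and 45.8 CPM with GFP and at 55.6, 29.5, 13.4 and 15.8 CPM with Has2. At 28.6 CPM its GFP replicate 2 lay nearer to the male Has2 libraries than to the other GFP libraries.

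On the other side the differences were small. Zfp526, Zfp575, Zfp358, Zfp446 and Zfp787 had the most positive mean male changes. Zfp526 was at 9.5, 6.2, 6.3 and 9.6 CPM with GFP and at 11.2, 10.5, 10.8 and 11.4 CPM with Has2. All 4 Has2 libraries of Zfp526 lay above all 4 GFP libraries. Zfp771, at 68.7% the highest GC of the family, was at 26.1, 35.4, 35.8 and 28.9 CPM with GFP and at 18.9, 24.7, 40.4 and 36.9 CPM with Has2. Its changes were −0.45, −0.51, 0.17 and 0.35 in pairs 1 to 4, so its sign pattern was the opposite of that of Zfp445. The next highest in GC, Zfp580, Zfp428, Zfp579 and Zfp628, had male changes of 0.13 and 0.36, 0.14 and 0.28, 0.05 and 0.24, and 0.15 and 0.19. Zfp608, among the most positive of the female pairs with 0.32 and 0.68, had 0.16 and −0.38 in the male pairs.

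Across all 8 libraries, groups that did not overlap were rare. In 3 genes every Has2 library was above every GFP library, against 0.871% of all genes tested, and in 1 every one was below, against 1.51%. The former were Zfp526, Zfp592 and Zfp865, the last of these named, like Zfp592 and Zfp560 here, after their values were seen. Zfp592 was at 29.6 ± 1.5 CPM (SD, n = 4) with GFP and 33.4 ± 1.4 CPM (SD, n = 4) with Has2. Zfp560, a low-GC gene at 40.2%, was at 8.1, 6.6, 10.0 and 8.3 CPM with GFP and at 6.1, 5.8, 6.0 and 6.4 CPM with Has2, lower in female and male pairs alike. Of the 189 genes, 11 were lower in all 4 pairs, against 7.96% of all genes.

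The most abundant genes per length are named next. By mean CPM per kilobase of transcript, Zfp207 led with 40.3, followed by Zfp771 with 20.8, Zfp637 with 20.6, Zfp706 with 19.8, Zfp106 with 19.2 and Zfp146 with 17.4. Zfp207, which binds spindle microtubules and the checkpoint protein Bub3, was at 134.1, 134.4, 117.9 and 133.2 CPM with GFP and at 160.2, 142.3, 109.8 and 124.7 CPM with Has2. Its transcript holds 41.7% GC, like that of Zfp68, but its male changes were −0.10 and −0.09; its coding part holds 48.1%. Zfp706 was at 84.2 to 101.3 CPM with GFP and 75.4 to 88.0 CPM with Has2, ranges that overlap. Zfp106, an RNA-binding protein needed by motor neurons, had changes of 0.25, 0.35, −0.40 and −0.39.

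Zfp146 lay off the gradient in the other direction. Its transcript holds 48.8% GC and its coding part 49.0%, and it was at 43.5, 35.5, 36.9 and 39.7 CPM with GFP and at 50.1, 36.3, 20.9 and 20.4 CPM with Has2. Its male changes of −0.81 and −0.94 compare with medians of −0.13 and −0.25 for Zfp genes of 45% to under 50% GC, and its mean male change was −0.89 with the trend removed. Conversely Zfp945, of 35.9% GC, had −0.35 and −0.58, and Zfp938, of 36.7%, had −0.92 and −0.59. Zfp367, picked out after its values were seen, had male changes of −0.98 and −1.13. Its coding part holds 60.9% GC but its 3′ UTR 35.0%. Its transcript is under 45% GC, where bin medians ran from −1.20 to −0.69, so it is not off the transcript gradient. Zfp622, a ribosome maturation factor with 43.6% transcript and 58.1% coding GC, had −0.23, −0.45, 0.07 and 0.16.

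Some members have known targets. Zfp36, also called tristetraprolin, binds AU-rich elements of mRNAs and promotes their decay; it was at 47.9, 34.1, 37.4 and 34.4 CPM with GFP and at 51.3, 33.5, 41.8 and 34.4 CPM with Has2, and its changes were at most 0.16 in size. Of genes singled out here after their values were seen, Zfp57, the other keeper of imprints beside Zfp445, was at 6.1, 7.9, 9.5 and 14.8 CPM with GFP and at 6.6, 7.2, 7.1 and 11.5 CPM with Has2. Its male changes were −0.40 and −0.35 at 45.8% GC. Zfp809, which silences murine leukemia viruses, had −0.71 and −0.59 at 45.2% GC, and Zfp568, which represses a placental Igf2 transcript, −0.40 and −0.49 at 47.1% GC.

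The threshold of 5 CPM cut through genes of both kinds. Just above it were Zfp770 with 5.08, Zfp691 with 5.03 and Zfp946 with 5.01 CPM of library total, whose changes in pair 3 were −1.23, −0.09 and −1.06. Just below it were Zfp707 with 4.97, Zfp949 with 4.93 and Zfp51 with 4.92, with 0.21, −0.59 and −1.34 in pair 3. The 185 Zfp genes under the threshold included 15 with 0 counts in all libraries; 128 passed the filter on low counts. These had a median transcript GC of 42.2% and median changes of 0.12, 0.09, −0.59 and −0.63 in pairs 1 to 4. The median of the family therefore depended on where the threshold was set, and the relation with GC did not: at 2 CPM (263 genes) pair 3 had a median of −0.33, and at 10 CPM (121 genes) of −0.00.

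Partners of the KRAB proteins, imprinted genes and other finger families were counted beside the Zfp genes. Counts are of genes called with edgeR and the replicate block for the male-minus-female response, at an adjusted p under 0.05, against 18% lower and 11.5% higher over all genes; the lists were chosen with earlier results of these data known. Without the block 0 genes of these lists were called. Of 27 KRAB corepressor genes tested, 10 were called lower and 3 higher. Atrx, a chromatin remodeller, had changes of 0.54, 0.47, −1.39 and −1.43 at 39.5% GC. Fam208a, a subunit of the HUSH silencing complex, had 0.13, 0.46, −1.30 and −1.26. Of 28 imprinted genes tested, 8 were called lower and 4 higher; Impact had −0.03, 0.04, −0.998 and −0.988 at 42.1% GC, while Ndn had −0.43, −0.31, 0.22 and 0.20 at 44.5%.

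Among other finger families 13 of 32 Zbtb genes, 6 of 21 Zkscan and Zscan genes and 7 of 22 Klf and Sp genes were called lower, and 1, 0 and 1 higher. Zbtb20 had changes of 0.76, 0.72, −1.10 and −0.87 at 43.0% GC, Zscan26 had 0.17, 0.43, −0.87 and −0.89 at 44.2%, and Sp3, a factor that binds GC boxes, had 0.24, 0.53, −1.19 and −1.34 at 40.1%. Of the 3 relatives of Zfp36 tested, Zfp36 included, 1 was called lower: Zfp36l1, with 0.44, 0.44, 0.09 and −0.17. The median changes of the 28 Zbtb genes at 5 CPM or more were −0.17 and −0.15 in the male pairs, beside −0.17 and −0.24 for the Zfp genes. Whether the families differ was not tested. With the GC and length trend removed and the block kept, the counts of genes called lower were 3 of 27 for the KRAB corepressor genes, 2 of 28 for the imprinted genes, 4 of 32 for Zbtb, 1 of 21 for Zkscan and Zscan, and 2 of 22 for Klf and Sp, against 4.58% of all genes. The counts called higher were 0, 4, 1, 0 and 0, against 5.97%.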

How the data were processed

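The deposited values are the authors' raw HTSeq counts, 1 row per Ensembl gene, for 8 libraries. The kit was a stranded mRNA kit, per the labels' protocols. Per the submitters' processing notes, FastQC 0.10.1 and HTSeq 0.10.0 were used with the mouse build GRCm39 (mm39); the aligner, the annotation and the strand option were not given in the sources used here. Overlapping or near-identical genes may have had their reads divided in unknown ways.

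Symbols, transcript sequences, GC content and lengths came from GENCODE M21, which annotates an older build; 52081 of 55414 identifiers matched and 3333 did not. GC was available for 15123 of the 15150 genes tested. RefSeq promoter windows are on GRCm38.p6. Proteins were translated from the longest annotated coding part and searched for C2H2 and KRAB-like letter patterns; 1 of the 189 genes had none annotated.

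Genes were tested with edgeR 4.0.16 (R 4.3.3): the quasi-likelihood test with TMM factors, filterByExpr, group as the only term, and Benjamini-Hochberg adjustment over all genes tested, called under 0.05. The male-minus-female response was the interaction of sex and virus. Standard errors given for edgeR were worked back as the size of the log2 fold change over the square root of the F statistic. Changes in a pair are log2 ratios of CPM by effective library size with 0.5 CPM added. The fits were tested on simulated counts. Libraries of the same replicate number share a library name identifier, and deviations from their group's mean had correlations of 0.58, 0.62, 0.53 and 0.44, so the numbers pair the libraries.

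The Zfp genes and all lists were chosen with earlier results of these data known. The rule for named genes, in the report or the closing section, takes Zfp445, Zfp68 and Zfp36; the 6 members with the highest CPM per kilobase; the 5 of lowest and of highest GC; the 5 most negative and most positive in the male and in the female pairs; the 3 nearest the threshold on each side; and up to 4 genes of each list by smallest interaction p with the block. Exceptions are marked.

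Other settings were the replicate block, RLE scaling, library totals, other filters and thresholds, another pseudocount, other measures of GC, removal of a spline trend (5 degrees of freedom) of GC and log2 length from each library, DESeq2 1.42.0, limma-voom (limma 3.58.1), and leaving out each library and replicate number. Removal of coding GC as well, and fits without both male Has2 libraries, were added after seeing the data.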

Additional observations from a re-analysis of the deposited data

Results flagged for a closer look

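Differences between male and female pairs are given as the mean change of pairs 3 and 4 minus that of pairs 1 and 2; each gene here moved one way in both pairs of one sex and the opposite way in both of the other, and these differences of means were not tested; the counts of edgeR's interaction test stand with the results. The median over the 189 Zfp genes was −0.29, and the mean Spearman rho of the change with transcript GC differed by 1.054. Genes lower in males were Zfp81 with −1.975, Zfp970 with −1.91, Zfp654 with −1.84, Zfp120 with −1.777, Zfp638 with −1.761, Zfp770 with −1.639, Zfp445 with −1.537, Zfp871 with −1.526, Zfp68 with −1.401, Zfp318 with −1.032, Zfp146 with −0.9924, Zfp462 with −0.756, Zfp106 with −0.6991 and Zfp207 with −0.2673. Genes higher in males were Zfp771 with 0.7401, Zfp428 with 0.5905, Zfp593 with 0.5683, Zfp787 with 0.461, Zfp622 with 0.4517 and Zfp637 with 0.4431.

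A library lay apart from the other 3 of its group for 3 named genes. Zfp207 was at 117.9 CPM in GFP replicate 3, Zfp638 at 28.59 CPM in GFP replicate 2 and Zfp770 at 8.104 CPM in Has2 replicate 1. Chance gives such a gap in about 1 of 20 groups. Both groups of each of the 39 named genes were checked, so chance alone would give a few such gaps.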

How the results depend on the processing

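The rho of the change with transcript GC in the male pairs moved little with the other thresholds, pseudocount and GC measures tried, and scaling, which shifts all genes of a pair nearly alike, was not tried on it; with the GC and length trend of all genes removed it was 0.25 in pair 3 and 0.23 in pair 4, and 0.13 and 0.054 in pairs 1 and 2 (−0.16 in pair 1 at 10 CPM). Family medians moved more. Pair 2 had 0.13 with RLE scaling, 0.12 with library totals and 0.048 with the trend removed. Pair 3 had −0.21 with library totals, −0.057 with the trend removed, −0.037 with coding GC removed too, −0.33 at a threshold of 2 CPM and −8.272e-05 at 10 CPM; pair 4 had −0.27, −0.072, −0.042, −0.35 and −0.091. No scaling moved the median of all genes by 0.1.

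For the virus, where edgeR called 1 gene, DESeq2 called 7, DESeq2 with the block 61, edgeR with the block and the trend removed 2, with coding GC removed too 8, and without Has2 replicates 3 and 4 it called 2. For the male-minus-female response, where edgeR called 0 genes (2014 at an unadjusted p under 0.05), the replicate block called 4470 (85 of the 189), DESeq2 675 (23), DESeq2 with the block 3589 (75), the block with the trend removed 1599 (38), and with coding GC removed too 1385 (28); limma-voom called 0. Leaving out a library or number gave 0 to 7. The cause was not tested. The family's median male-minus-female difference of −0.32 was −0.36 with library totals, −0.18 with the trend removed, −0.18 with the block as well, −0.15 with coding GC removed too, and −0.63 to −0.19 with a library or replicate number left out, the extremes being GFP replicates 1 and 2. Of 468 values of 39 named genes, 12 moved by more than the SD over pairs. That SD includes the gap between male and female pairs and is wide for many genes, so the count says little of how steady the values are. The lowest count of any Zfp gene in a library was 98.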
